A study of Felis catus with 2 samples.

Results

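The matricellular and TGF-beta induced matrix genes described here are SPARC, THBS1, THBS2, FN1, TGFBI, TNC, POSTN and SPP1. Members were found by an exact match of these 8 names in the deposited table, which has 32065 loci. All 8 were listed, each on 1 row. The table comes from polyadenylated RNA of the iridocorneal angle, the tissue between iris and cornea through which aqueous humor leaves the eye. The dissected pieces also took in ciliary body, sclera and trabecular meshwork. One library was made from a cat with primary congenital glaucoma (Affected), from a pedigree with recessive disease in which affected cats carry a 4-base insertion in LTBP2, and one from an unrelated healthy cat (Normal), both 2 months old. The LTBP2 genotype of each sequenced cat is not given in the sample labels. With 1 library per condition no difference could be tested, and disease, cat, dissection and library preparation cannot be told apart.

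Matricellular proteins are secreted into the extracellular matrix, where most of them act on cells and on matrix assembly rather than as structural fibers. Fibronectin is the scaffold on which other matrix proteins are laid down. TGF-beta, which is held in the matrix by several of the latent TGF-beta binding proteins and released by integrins and proteases, induces many of these genes. In the trabecular meshwork SPARC, thrombospondins, fibronectin and tenascin C belong to the matrix through which aqueous humor drains, and fibronectin and TGF-beta have long been studied there in connection with resistance to outflow.

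All 8 genes were lower in the Affected library. POSTN and TNC differed most, by more than 20-fold, FN1, TGFBI and THBS1 by between 5- and 8-fold, and SPP1, SPARC and THBS2 by less than 3-fold. Values are FPKM, fragment numbers divided by transcript length and by the size of the library. Log2 ratios were taken as Affected over Normal after addition of 1 FPKM, which understates the change of low genes. On that scale 6 of 8 members were at least 2-fold lower, against 8.75% of the 16676 loci used, those that reached 1 FPKM in Normal or in Affected. No member was at least 2-fold higher, against 8.14% of loci, and 4 of 8 were at least 4-fold lower, against 1.79% of loci. The median log2 ratio of the 8 members was −2.33, whereas that of all loci used was −0.0047, with 50.3% of loci below 0. The members were chosen with earlier results of these libraries known, so these shares describe the list and test nothing.

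**Figure D1:**
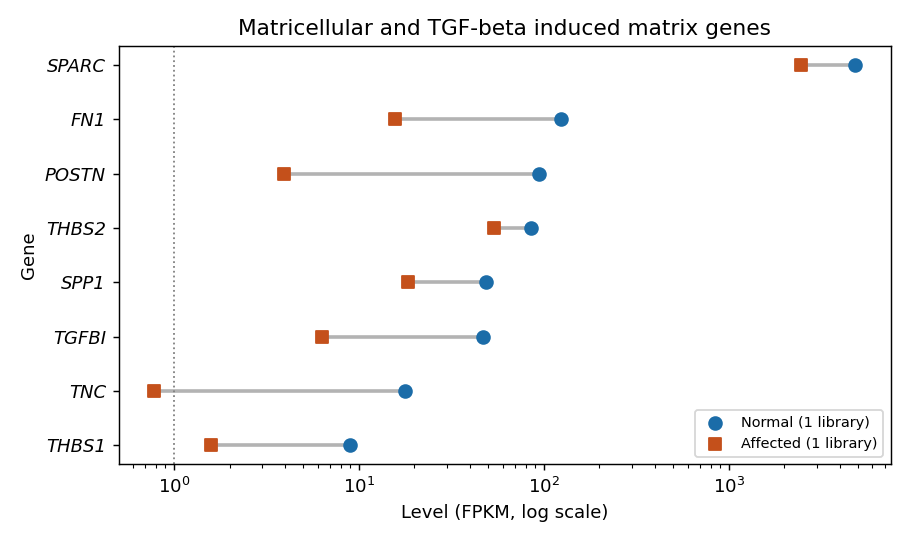
FPKM (x axis, log scale) of each matrix gene (y axis) in Normal (circles) and Affected (squares), with 1 value per library and no error bars. The gray line joins the values of 1 gene, and every square lies left of its circle, from the short step of THBS2 (85.3 to 53.6 FPKM) to the long step of POSTN (93.9 to 3.92 FPKM). The dotted line marks 1 FPKM.

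The depth behind these values was read from the steps between low FPKM values at unnamed loci. A fragment on 1 kilobase of effective transcript length was worth 0.0141 FPKM in Normal against 0.0148 FPKM in Affected. Within 0.03 of a whole fragment lay 97.7% of 2386 values in the Normal library and 97.1% of 2192 values in the Affected library. The table gives no transcript lengths. The 95% intervals below therefore take 1 kilobase of effective length for each gene, would be narrower for a longer transcript, and cover counting error only, not the variation between cats. In tissue RNA, fewer cells of a type and less RNA per cell cannot be told apart.

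FN1 encodes fibronectin. It lies on chromosome C1 of felCat5 from 199706917 to 199776565. FN1 was listed at 123.7 FPKM in Normal against 15.7 FPKM in Affected. The Normal value was 7.88 times the Affected value (7.39 to 8.40), a log2 ratio of −2.90, and 93 of the 16676 loci had a lower one. In the Normal library FN1 exceeded 96.3% of the loci used, and in the Affected library 67.1%. Among 2012 loci whose mean level was within 2-fold of that of FN1, 0.994% had a lower log2 ratio. Splice forms of fibronectin are summed in this value.

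TGFBI and POSTN, which encode TGF-beta induced protein and periostin, are the secreted pair of the fasciclin family. TGFBI protein is abundant in the cornea, where its mutations cause corneal dystrophies, and periostin takes part in collagen assembly. Both genes are on chromosome A1, TGFBI from 113241631 to 113292739 and POSTN from 16110113 to 16146417. TGFBI had 46.8 FPKM in Normal against 6.34 FPKM in Affected, a Normal value 7.38 times the Affected one (6.67 to 8.16) with a log2 ratio of −2.70. POSTN had 93.9 FPKM in Normal against 3.92 FPKM in Affected, 24.0 times lower in the Affected one (21.2 to 27.1), with a log2 ratio of −4.27. Only 35 loci of those used had a lower log2 ratio than POSTN, and 116 a lower one than TGFBI. The order of this pair turned between the libraries. POSTN stood at 2.01 times TGFBI in the Normal library (1.92 to 2.09) and at 0.618 times TGFBI in the Affected library (0.530 to 0.720).

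TNC encodes tenascin C, a hexameric glycoprotein that is made in developing and healing tissue and counteracts cell adhesion to fibronectin. It lies on chromosome D4 from 76912258 to 77007888. TNC had 17.8 FPKM in Normal against 0.779 FPKM in Affected, and was the only member under 1 FPKM in either. The Affected value rests on about 52.6 fragments per kilobase, the fewest of any member. The Normal value was 22.9 times the Affected value (17.4 to 30.2), with a log2 ratio of −3.41 that 59 loci fell below. Because addition of 1 FPKM weighs most on TNC, its log2 ratio moved to −4.35 with 0.1 FPKM in its place.

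The thrombospondins bind cells, calcium and growth factors, and thrombospondin 1 is a known activator of latent TGF-beta. THBS1 had the lowest level of the 8 in the Normal library, with 9.0 FPKM, and 1.58 FPKM in the Affected library. It was thus 5.70 times lower in the Affected library (4.64 to 6.99), with a log2 ratio of −1.95. THBS2, by contrast, was listed at 85.3 FPKM in Normal against 53.6 FPKM in Affected, 1.59 times lower (1.53 to 1.66). Its log2 ratio of −0.66 was the smallest difference among the members, and 16.4% of the loci used had a lower one. THBS2 was 9.47 times THBS1 in the Normal library (8.73 to 10.3) and 34.0 times THBS1 in the Affected library (28.0 to 41.2), so the spacing of the pair differed beyond its counting error. THBS1 lies on chromosome B3 from 65311141 to 65326902, the chromosome that carries LTBP2, from which it is 55.6 megabases away. THBS2 lies on chromosome B2 from 153178739 to 153203956.

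SPARC, also called osteonectin, binds collagen and is among the best studied matricellular genes of the trabecular meshwork. It lies on chromosome A1 from 195365418 to 195389193. SPARC had 4853 FPKM in Normal against 2467 FPKM in Affected. It ranked 9th of all 32065 loci in the Normal library and 26th in the Affected library. The Normal value was 1.97 times the Affected value (1.96 to 1.98), and the log2 ratio of −0.98 fell just short of 2-fold. With both libraries rescaled to the same summed FPKM, SPARC passed that line at −1.03, which made 7 of 8 members at least 2-fold lower. Among the 27 loci with a mean level within 2-fold of SPARC, none had a lower log2 ratio.

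SPP1 encodes osteopontin, a phosphorylated glycoprotein that binds integrins and CD44 and is made by macrophages, bone cells and many epithelia. It lies on chromosome B1 from 133030605 to 133045491. SPP1 had 48.6 FPKM in Normal against 18.6 FPKM in Affected. The Normal value was 2.62 times the Affected value (2.45 to 2.79), the log2 ratio was −1.34, and 4.87% of the loci used had a lower one. Of 7 macrophage markers used, C1QA, C1QB, C1QC and CD163, that is 4, were 2-fold or more above Normal and none was 2-fold lower (C1QC and CD163 were picked out after their values were seen). The part of these cells in the SPP1 result was not tested. In the same libraries the summed level of the 8 that were listed was 177.1 FPKM in Normal against 423.3 FPKM in Affected. The 3 other markers used, CSF1R (12.9 and 11.7 FPKM), AIF1 (10.9 and 7.39 FPKM) and TYROBP (59.2 and 66.7 FPKM), differed by less than 2-fold. These 3 were also picked out after their values were seen. The complement gene C1QA had 39.7 and 149.8 FPKM and C1QB 32.6 and 111.4 FPKM, in the same order. No marker of this list stood at 0.

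**Figure D2:**
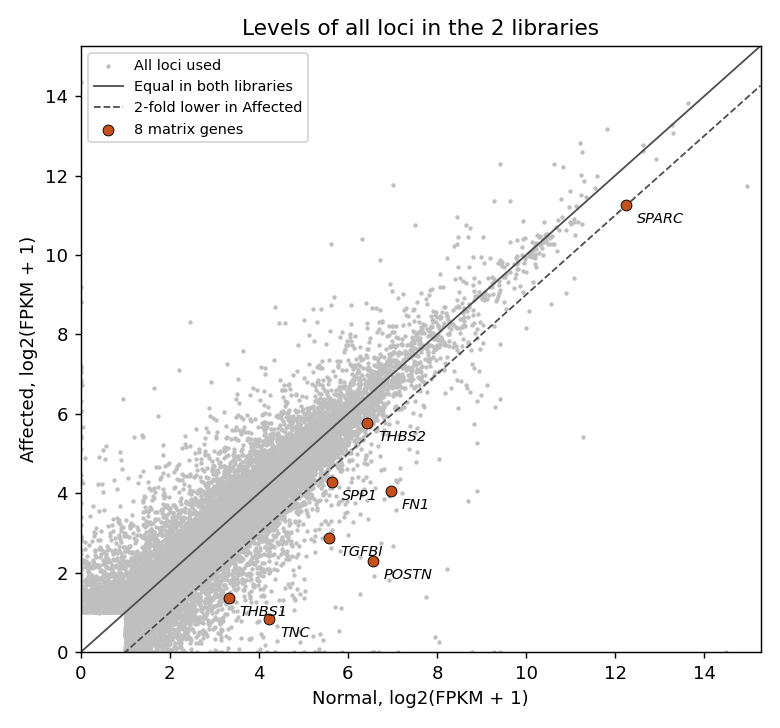
Level in the Normal library (x axis) against the Affected library (y axis), both as log2(FPKM + 1), for the 16676 loci used (gray) and the 8 matrix genes (orange). The solid line marks equal levels and the dashed line a 2-fold lower Affected level. All 8 genes lie below the solid line, 6 lie below the dashed line, SPARC lies just above it at the upper end, and THBS2 lies between the lines.

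In the Normal library the levels ran, from high to low, SPARC, FN1, POSTN, THBS2, SPP1, TGFBI, TNC and THBS1. Here SPP1 and TGFBI did not differ beyond counting error at 1 kilobase of effective length, with a ratio of 1.04 (0.990 to 1.09). Longer transcripts would narrow this interval, which only just reaches 1. The intervals of the 6 other neighboring pairs lay above 1. In the Affected library the order was SPARC, THBS2, SPP1, FN1, TGFBI, POSTN, THBS1 and TNC, and the intervals of all neighboring pairs lay above 1. POSTN thus went from place 3 to place 6 and FN1 from place 2 to place 4, whereas SPARC stayed first. SPARC alone made up 91.9% of the summed FPKM of the 8 genes in Normal and 96.1% in Affected. The other 7 genes summed to 425.2 FPKM in Normal against 100.5 FPKM in Affected, a 4.23-fold difference. With SPARC the sums were 5278 and 2568 FPKM, or 0.813% and 0.382% of all FPKM.

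**Figure D3:**
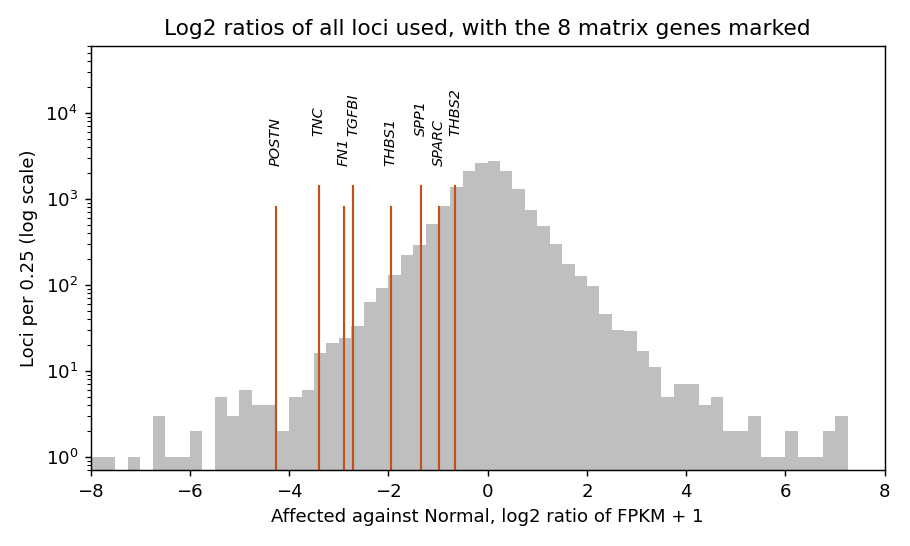
Number of loci (y axis, log scale) by log2 ratio of FPKM + 1, Affected over Normal (x axis, bins of 0.25), for the loci used, of which 8 lie beyond the plotted range of −8 to 8. Orange lines mark the 8 matrix genes, which extend from THBS2 at −0.66 to POSTN at −4.27, all left of 0.

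Relatives of the 8 genes in the same protein families had a median close to that of all loci. Of 26 relatives, 23 were listed and 15 reached 1 FPKM. By at least 2-fold 3 were higher and 3 lower, and the median log2 ratio was −0.014. Over all loci used 8.14% were higher and 8.75% lower, so larger shares of the relatives were past 2-fold in both directions. FSTL1, a SPARC family member, was the highest of them with 587.1 FPKM in Normal against 581.4 FPKM in Affected. SMOC2, another SPARC relative, had 27.6 and 4.30 FPKM, and the CCN gene NOV had 10.2 and 1.40 FPKM. The SPARC family proteoglycans SPOCK1 and SPOCK2 were higher in the Affected library, at 27.6 and 88.9 FPKM and at 32.6 and 64.4 FPKM, the latter just under 2-fold. The other genes past 2-fold, picked out after their values were seen, were COMP (0.748 and 4.17 FPKM) and TNR (0.568 and 3.35 FPKM), both higher in Affected, and the fasciclin gene STAB1 (6.91 and 2.67 FPKM), lower in Affected.

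Of 18 genes for TGF-beta ligands, latent binding proteins, activators, receptors and SMADs, 16 were listed and used. By at least 2-fold 3 were higher and 3 lower in Affected, against 8.14% and 8.75% of all loci used. The median log2 ratio was −0.13. The 3 higher genes were TGFB2, the ligand, with 65.3 FPKM in Normal against 152.1 FPKM in Affected, TGFBR3, the coreceptor betaglycan, with 16.6 and 63.5 FPKM, and LTBP2 with 16.7 and 54.8 FPKM. LTBP2 is a microfibril protein that belongs to the latent binding protein family by sequence but is not known to bind latent TGF-beta itself. ENG, the endothelial coreceptor endoglin, had 41.0 and 16.7 FPKM. The other lower genes, picked out after their values were seen, were the ligand TGFB3 (12.1 and 5.12 FPKM) and LRRC32, which anchors latent TGF-beta on cells (6.29 and 0.766 FPKM). LTBP3, a family member that does bind latent TGF-beta, had the highest mean level of the list, with 108.3 and 137.8 FPKM.

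Other genes that TGF-beta is known to induce moved in both directions around a median below 0. Of 18 such genes 15 were listed and used, 7 were at least 2-fold lower and 2 higher, COL1A2 included, and the median log2 ratio was −0.77. Among all loci used, 8.75% were lower by that much and 8.14% higher. The fibrillar collagen genes COL1A1 and COL3A1 had 2476 and 415.4 FPKM in the Normal library but 41.8 and 12.9 FPKM in the Affected library. BGN, which encodes the collagen-binding proteoglycan biglycan, had 553.7 and 104.9 FPKM. COL1A2, the partner chain of COL1A1, was listed at 0 in Normal and at 447.2 FPKM in Affected, so a value of 0 cannot be read as absence, and no ratio is given for it. Its Affected value was also far above the 41.8 FPKM of COL1A1, so the levels listed for this pair do not match in either library. Whether the COL1A1 values are affected was not tested. Without COL1A2, 1 gene was at least 2-fold higher and 7 lower, and the median of the other 14 genes was −0.93.

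Receptors and enzymes that act on the 8 proteins likewise had medians near 0. Of 16 receptor genes, 14 were used, 1 was at least 2-fold higher and 3 at least 2-fold lower, and the median log2 ratio was −0.097. Among all loci used, 8.14% were higher by that much and 8.75% lower. ITGB1, the shared beta subunit of most fibronectin and tenascin receptors, had 190.1 FPKM in Normal against 120.9 FPKM in Affected. ITGA5, its partner in the classical fibronectin receptor, had 11.5 and 2.99 FPKM, and SDC1, a heparan sulfate proteoglycan, 38.3 and 13.1 FPKM. SDC4, a syndecan coreceptor for fibronectin, went the other way with 62.3 and 226.3 FPKM, and CD44 had 19.8 and 9.99 FPKM. ITGA4, the remaining lower receptor and picked out after its values were seen, had 3.77 and 0.666 FPKM. Of 12 enzyme genes, 10 were used, 2 were lower by at least 2-fold and none higher, with a median of −0.22. These 2 were BMP1, a procollagen protease, with 38.6 and 11.0 FPKM, and TGM2, a transglutaminase that cross-links fibronectin, with 18.9 and 7.42 FPKM. HTRA1, a secreted serine protease, had 478.4 and 498.5 FPKM, MMP14 119.6 and 167.8 FPKM, and PLAU, which encodes urokinase, 7.44 and 3.93 FPKM.

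**Figure D4:**
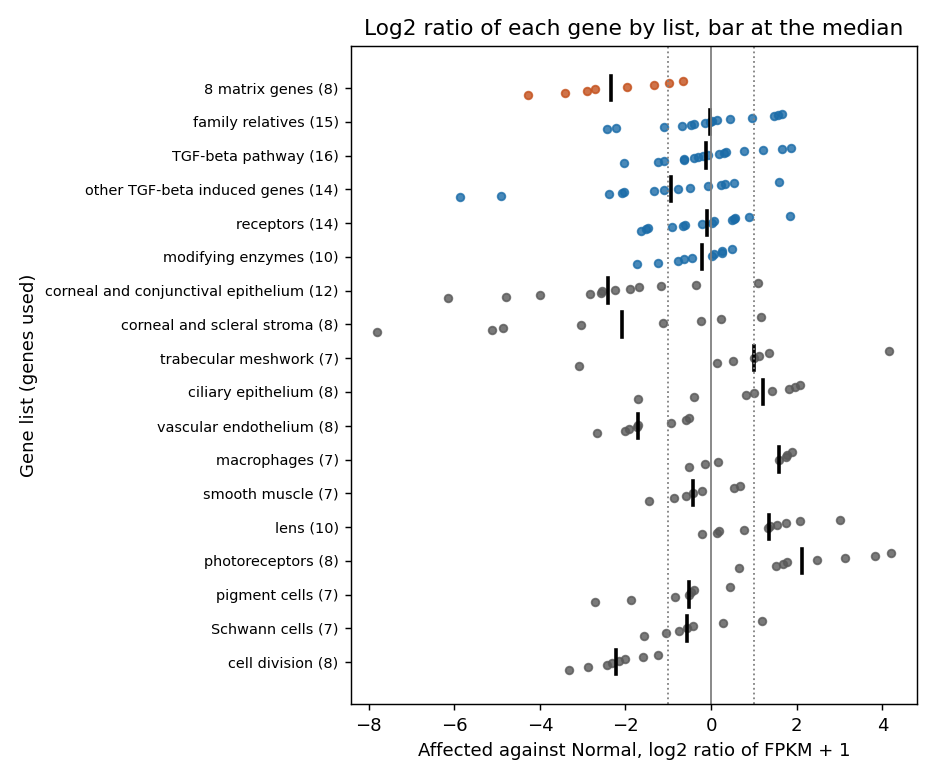
Log2 ratio of FPKM + 1, Affected over Normal (x axis), of each gene used in each list (y axis, number of genes plotted in parentheses), with a black bar at the median of the list. The 8 matrix genes (orange) lie left of 0 around a median of −2.33, the family relatives, TGF-beta pathway genes, receptors and modifying enzymes (blue) are spread around 0, the other TGF-beta induced genes (blue) around a median of −0.93, and the markers of tissues and cell types (gray) move apart in both directions. COL1A2, listed at 0 in the Normal library, and the skeletal muscle list, with 2 genes used, are not plotted, and dotted lines mark 2-fold differences.

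Markers of several tissues differed between the same libraries, and their part in the results above was not tested. For corneal and conjunctival epithelium, 10 of 12 genes were 2-fold or more below Normal and 1, CLDN1, was above it (9.88 and 22.4 FPKM), and the summed level of the list was 1083 FPKM in Normal against 136.1 FPKM in Affected. KRT12, the corneal keratin, had 299.1 and 3.27 FPKM. For corneal and scleral stroma 5 of 8 genes were at least 2-fold lower and 1, PRELP, was higher (87.0 and 196.2 FPKM), and the list summed to 2226 and 973.5 FPKM. DCN, which encodes the stromal proteoglycan decorin, had 685.6 and 82.2 FPKM, but FMOD, another of this family, had 351.9 and 416.0 FPKM. KERA, a keratocyte gene, had 264.7 and 0.190 FPKM. CLDN1, PRELP and KERA were picked out after their values were seen.

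Vascular endothelium had 5 of 8 genes used at least 2-fold lower and none higher, with sums of 146.4 FPKM in Normal against 49.3 FPKM in Affected. All 8 cell division genes used were at least 2-fold lower, with sums of 97.4 and 13.6 FPKM. Markers of the trabecular meshwork, in contrast, summed to 865.3 and 865.8 FPKM, and 4 of the 7 used were at least 2-fold higher and 1 lower. The lower gene was MGP, matrix Gla protein, with 454.9 and 52.9 FPKM, and among the higher ones TIMP3, a metalloprotease inhibitor, had 161.7 and 353.9 FPKM. The ciliary epithelium list summed to 1739 and 5054 FPKM, with 4 of 8 genes at least 2-fold higher and 1 lower. Among photoreceptor markers 7 of 8 were at least 2-fold higher and none lower (sums 409.0 and 1661 FPKM), and among lens markers 6 of 10 and none (34903 and 49266 FPKM).

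Among the remaining lists, smooth muscle summed to 339.7 FPKM in Normal against 306.8 FPKM in Affected, with 1 of 7 genes at least 2-fold lower and none higher. Pigment cells summed to 2371 and 1644 FPKM, with 2 of 7 at least 2-fold lower, and Schwann cells to 201.4 and 166.3 FPKM, with 2 of 7 lower and 1 higher. Of 9 skeletal muscle genes only 2 were used, 1 higher and 1 lower, and the 5 listed summed to 12.3 and 35.1 FPKM. None of the marker genes listed was at 0 in either library.

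The genes whose 2 values came closest to those of each member were sought among 11468 other named genes, by the distance in log2(FPKM + 1) over the 2 libraries. With only 2 libraries, such likeness says no more than that a gene had similar levels in both. Nearest to POSTN were COL8A2, which encodes a collagen of Descemet membrane, with 76.2 and 4.28 FPKM (distance 0.31), and LYPD2 (0.37). Nearest to TNC were SERPINB5 (0.23) and FAM198B (0.24), and nearest to TGFBI were S100A2 (0.042) and EDNRA, the endothelin A receptor (0.16). FN1 had NDUFA4L2 (0.13) and ITIH4 (0.24) closest to it, THBS1 had ADAMTS7 (0.017) and PDGFB (0.077), and SPP1 had ADAMTS16 (0.052) and TTYH3 (0.13). For THBS2 these were PNP (0.068) and CPSF2 (0.077). SPARC had no close neighbor, since CRYBB3 and RPL17 stood 0.81 and 1.05 away and were both higher in the Affected library.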

How the data were processed

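The authors aligned HiSeq reads, from TruSeq libraries of polyadenylated RNA, to felCat5 with TopHat 2.0.9 and deposited FPKM calculated with Cufflinks 2.1.1 and cummeRbund 2.4.1, as 1 value per locus and library. Library scaling and filters on loci are not given in the sources used here. No count test applies to FPKM, and 1 library per condition allows no p-value. Deposited starts count from 0 and are printed from 1.

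Loci that reached 1 FPKM in Normal or in Affected were used. Log2 ratios took a pseudocount of 1. Fragment scales were fitted at unnamed loci of 400 to 2500 bases with under 12 fragments, with 176 (Normal) and 177 bases (Affected) taken off the length, and checked, like the 2-fold calls, on simulated data. The simulated calls held counting error only and changes well past 2-fold. They therefore say nothing on calls near 2-fold, such as that of SPARC, or on variation between cats. Intervals are 95% Poisson intervals on the log ratio.

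The 8 members and the 18 other lists were chosen with earlier results of these data known. The rule for naming other genes took, per pathway list, the 4 largest absolute log2 ratios among genes averaging 5 FPKM or more and the highest gene. Per marker list it took the 2 highest genes, and per member the 2 nearest genes. Not every gene that fits this rule is named above or given with values. Among those left out, ALDH3A1 had 475.3 FPKM in Normal against 79.2 FPKM in Affected, and COL9A1 had 403.5 and 1718 FPKM. The values of 1 gene are not reported here. Alternatives were a pseudocount of 0.1, 2 rescalings, no minimum, a mean FPKM of 5 as minimum, a 4-fold threshold, and summed rows per name. Sequences were not used here. Python 3.11.15, numpy 2.4.6, pandas 2.3.3, scipy 1.17.1 and matplotlib 3.10.9 were used.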

Additional observations from a re-analysis of the deposited data

How the results depend on the processing

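All 8 members remained lower in the Affected library under each of the 7 alternatives, of which only the 2 rescalings could have changed a sign. With a pseudocount of 0.1 FPKM the median log2 ratio of the members moved from −2.33 to −2.65, since the values next to the median, those of TGFBI and THBS1, moved to −2.86 and −2.44. Of 48 log2 ratios recomputed for single members, 5 moved by more than their counting error at 1 kilobase of effective length and none changed sign. A longer transcript would narrow that error and could raise the count. Those recomputed with no minimum, a mean of 5 FPKM as minimum or summed rows could not move, since all 8 members passed each filter. The count of members at least 2-fold lower was 7 when each library was rescaled to sum to 1000000 and 6 under the other alternatives with that threshold. Each member stands on 1 row, so summing rows per name changed no member value. Over all loci, 1358 were at least 2-fold higher and 1459 lower. These counts became 815 and 691 when the minimum was a mean of 5 FPKM, and 280 and 298 at 4-fold, since fewer loci or larger differences are then counted. Loci past 2-fold numbered 1992 and 2173 with a pseudocount of 0.1 FPKM. Depth limits TNC and THBS1 in the Affected library most. The variation between cats is unknown. No paired analysis was possible because there is 1 library for each condition.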
